A study of Mus musculus with 4 samples.

Results

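N6-methyladenosine (m6A) is a methyl mark on adenosines inside messenger RNA. It is laid down in the nucleus by a methyltransferase complex (the writers), bound by proteins that act on the fate of the transcript (the readers) and removed by demethylases (the erasers). In blood vessels the mark is known for its part in the turnover and translation of transcripts that endothelial cells use as they divide and sprout. The 10 genes described here were chosen by name from the 32285 genes of the count tables. They comprise the writers Mettl3, Mettl14, Wtap and Rbm15, the readers Ythdf1, Ythdf2, Ythdf3 and Ythdc1, and the erasers Fto and Alkbh5. The libraries measured the RNA of these genes, not the methyl mark, and all 10 genes had UMIs (unique molecular identifiers, each standing for 1 captured RNA molecule) in endothelial cells of every library.

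The 4 libraries were droplet single-cell RNA libraries of mouse lung, 1 per group, so no difference between groups has a replicate check. They came from M3cKO mice on day 7 after PNX, from Foxo1cKO mice on day 7 after PNX, from WT mice on day 7 after PNX and from WT mice after a sham operation. PNX is read here as pneumonectomy, the removal of lung tissue after which the remaining lung grows. The cKO labels stand for conditional knockout. The labels spell out neither M3, which is read here as Mettl3, nor the deleted exons, the Cre driver, the strain, the age or the number of animals per library. CD45-positive cells had been removed with beads and CD31-positive cells kept. Of 34683 cell barcodes, 23723 had at least 500 genes and at most 10% mitochondrial UMIs. Of these, 14854 were endothelial, with at least 2 UMIs over Pecam1, Cdh5, Cldn5, Egfl7, Ramp2 and Tie1 and none of Ptprc, Epcam, Col1a1 or Col1a2.

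Endothelial cells numbered 2491 in the library labelled M3cKO PNX, 3811 in Foxo1cKO PNX, 3887 in WT PNX and 4665 in sham, and their summed UMIs ranged from 6492399 to 13691550. The 6 markers of general capillary cells summed to 7567 to 8085 CPM (UMIs of a gene scaled to a common library total) in endothelial cells of every library. Libraries shared 68 to 111 barcodes pairwise. The female transcript Xist was at 0 CPM in the library labelled M3cKO PNX and in sham, and at 154 CPM in Foxo1cKO PNX and 132 CPM in WT PNX. Foxo1cKO PNX and WT PNX held both female-type cells (an Xist UMI and no UMI of 4 Y-linked genes) and male-type cells (the reverse), so the libraries differ in the sex of their animals as well as in their labels. Foxo1, the gene of the Foxo1cKO label, had 70.1 CPM in Foxo1cKO PNX, against 208 CPM in WT PNX and 196 CPM in sham.

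The members lie on 8 chromosomes, with Mettl14, Rbm15 and Ythdf3 all on chromosome 3, and all are annotated as protein-coding in GENCODE M21 (GRCm38, the build of the deposited counts). Mettl3 (ENSMUSG00000022160) spans chr14:52294841-52305128 on the minus strand. The 1561 bases at its 3′ end, chr14:52294841-52296401, are also exon sequence of Tox4 on the opposite strand. Fto holds the antisense gene 4831440D22Rik within its span. Whether the counting used strand is not given in the sources used here, so reads from these overlaps may be assigned to either gene. Ythdc1 overlaps the long noncoding RNA gene Gm43055 on the same strand over 12886 bases, exons included. Gm43055 is not in the count tables, and how reads from it were counted is not given.

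Promoters were compared for members that moved in opposite directions in proliferating endothelium, Rbm15 and Alkbh5, and for Ythdc1, the member that differed most between blood cells and endothelium. The RefSeq promoter table (GRCm38.p6, 250 bases before to 50 after the start) held 8 of the 10 members. Motifs known from promoters of cell cycle genes were searched on both strands, and matches are in capitals. The CCAAT box occurred in 37.4% of all 32851 promoters of the table. The E2F-type element TTTNNCGC occurred in 5.17% of them. The element TTTGAA, searched in both spellings of the cell cycle homology region, occurred in 17.9%, and its other spelling TTCGAA in 1.56%. The Rbm15 promoter is at chr3:107333240-107333539 on the minus strand and held 2 CCAAT matches. The Alkbh5 promoter is at chr11:60537433-60537732 on the plus strand and held 1 CCAAT match. The Ythdc1 promoter is at chr5:86804016-86804315 on the plus strand and held 2 TTTNNCGC matches. A match describes the letters only and shows no binding.
Rbm15: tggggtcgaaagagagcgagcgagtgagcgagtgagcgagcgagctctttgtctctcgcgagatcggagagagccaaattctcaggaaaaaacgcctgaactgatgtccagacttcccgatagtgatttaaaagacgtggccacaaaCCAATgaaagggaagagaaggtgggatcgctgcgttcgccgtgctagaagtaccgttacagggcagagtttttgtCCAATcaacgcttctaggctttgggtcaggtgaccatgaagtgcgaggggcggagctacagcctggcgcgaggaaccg
Alkbh5: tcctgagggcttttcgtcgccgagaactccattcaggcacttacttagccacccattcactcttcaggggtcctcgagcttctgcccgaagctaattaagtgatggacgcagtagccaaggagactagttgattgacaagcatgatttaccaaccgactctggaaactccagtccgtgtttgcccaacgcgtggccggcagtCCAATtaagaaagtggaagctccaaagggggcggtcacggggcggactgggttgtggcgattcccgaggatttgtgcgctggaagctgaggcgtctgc
Ythdc1: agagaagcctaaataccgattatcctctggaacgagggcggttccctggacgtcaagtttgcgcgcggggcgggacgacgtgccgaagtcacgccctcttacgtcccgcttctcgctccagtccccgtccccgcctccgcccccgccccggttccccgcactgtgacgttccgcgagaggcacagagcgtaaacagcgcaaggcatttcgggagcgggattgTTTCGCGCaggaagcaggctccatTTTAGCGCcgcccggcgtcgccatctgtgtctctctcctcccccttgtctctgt

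The first question was whether the endothelial level of the m6A genes differed between the libraries. Levels are CPM of summed UMIs with exact Poisson 95% intervals, and ratios carry exact conditional binomial 95% intervals. Both cover counting error only. Members were counted as apart at a ratio of 1.5-fold or more with at least 10 CPM in either library, which is a rule of size and not a test. By this rule 1 of the 10 members was higher and 0 were lower in WT PNX over sham, where 18.3% of all genes measured were apart (11.3% higher, 6.98% lower). In the library labelled M3cKO PNX over WT PNX 0 members were higher and 0 lower, where 20.7% of genes were apart (6.37% higher, 14.4% lower). In Foxo1cKO PNX over WT PNX 0 were higher and 1 was lower, where 2.49% of genes were apart (1.09% higher, 1.39% lower). The share of members called was thus below the background in the first 2 comparisons, and in the third a single member was called.

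**Figure D1:**
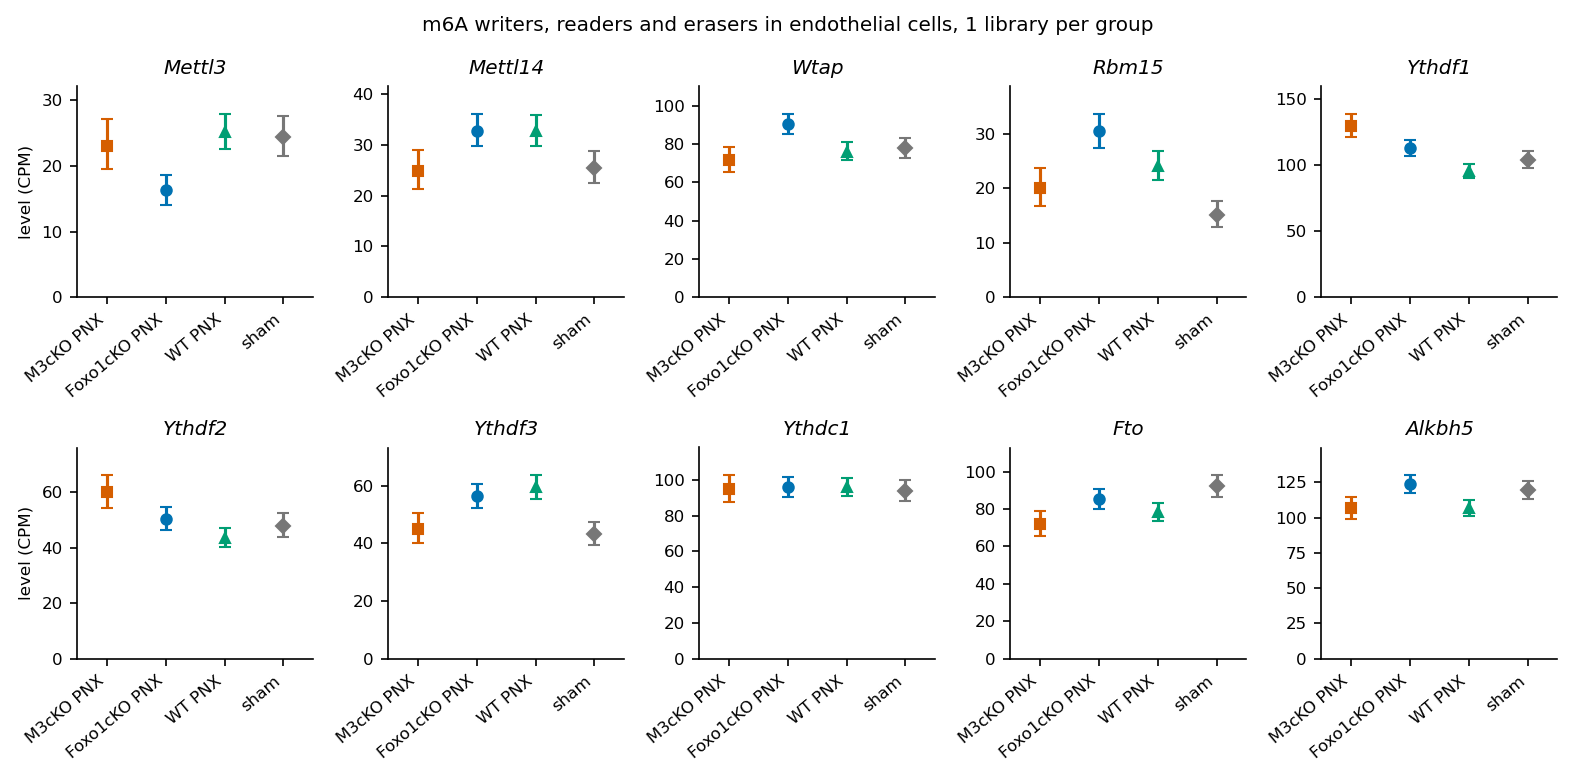
Level of each member in endothelial cells (CPM, vertical axis from 0, its range differing between panels) in the 4 libraries. Points are CPM of summed UMIs and bars exact Poisson 95% intervals, 1 library per group. Mettl3 was lowest in Foxo1cKO PNX at 16.3 CPM, Rbm15 was lowest in sham at 15.2 CPM, and Ythdc1 lay between 94.0 and 95.9 CPM in all 4 libraries.

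Among the writers, Mettl3, the catalytic subunit, had 23.1 CPM in the library labelled M3cKO PNX (150 UMIs), 16.3 CPM in Foxo1cKO PNX (201 UMIs), 25.2 CPM in WT PNX (345 UMIs) and 24.4 CPM in sham (256 UMIs). The Foxo1cKO PNX interval, 14.1 to 18.7 CPM, lay below the intervals of the other 3 libraries, which overlapped one another. Mettl14, the partner that helps bind the substrate RNA, had 25.0 CPM in the library labelled M3cKO PNX, 32.9 CPM in Foxo1cKO PNX, 32.7 CPM in WT PNX and 25.5 CPM in sham. The 2 higher and the 2 lower libraries had intervals that did not overlap. Wtap, the regulatory subunit that holds the complex at nuclear speckles, had 71.8, 90.5, 76.0 and 77.9 CPM in the library labelled M3cKO PNX, Foxo1cKO PNX, WT PNX and sham. It stood highest in Foxo1cKO PNX. Rbm15, an RNA-binding adaptor that recruits the complex to its targets, had 20.02 CPM in the library labelled M3cKO PNX, 30.5 CPM in Foxo1cKO PNX, 24.03 CPM in WT PNX and 15.2 CPM in sham. All 3 PNX libraries were above sham for Rbm15, and only the intervals of the library labelled M3cKO PNX (16.7 to 23.8 CPM) and sham (12.9 to 17.7 CPM) overlapped among these pairs with sham.

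Among the readers, Ythdf1, a cytoplasmic reader linked to translation, had 129.7 CPM in the library labelled M3cKO PNX, 112.8 CPM in Foxo1cKO PNX, 95.1 CPM in WT PNX and 104 CPM in sham. Ythdf2, which brings the CCR4-NOT deadenylase to marked transcripts, had 59.9, 50.4, 43.6 and 47.9 CPM in the same order of libraries. Both stood highest in the library labelled M3cKO PNX. Ythdf3, the third cytoplasmic paralog, had 44.98 CPM in the library labelled M3cKO PNX, 56.3 CPM in Foxo1cKO PNX, 59.5 CPM in WT PNX and 43.2 CPM in sham. The order of libraries for Ythdf3 was thus unlike that of Ythdf2. Ythdc1, the nuclear reader that acts on splicing and export, had 94.9, 95.9, 95.9 and 94.0 CPM in the library labelled M3cKO PNX, Foxo1cKO PNX, WT PNX and sham, and its 4 intervals overlapped.

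Of the erasers, Fto, a demethylase that also acts on the mark beside the cap, had 71.9 CPM in the library labelled M3cKO PNX, 85.1 CPM in Foxo1cKO PNX, 78.4 CPM in WT PNX and 92.2 CPM in sham. Alkbh5, a nuclear demethylase, had 106.6, 123.8, 106.8 and 119.5 CPM in the same order. Neither reached a ratio of 1.5-fold in any of the 3 comparisons.

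Comparing the operated with the sham-operated WT lung, Rbm15 was 1.59 times as high in WT PNX as in sham (1.31 to 1.93). The ratio was 1.70 (1.23 to 2.37) in general capillary cells alone and 1.46 (1.04 to 2.07) in male-type cells alone, where it did not reach 1.5-fold. Sham held no female-type cells, and 1196 of its 4665 endothelial cells were male-type. In male-type cells Mettl14 passed the rule at 1.61 (1.22 to 2.16) and Mettl3 was at 1.47 (1.03 to 2.09), from 53 Mettl3 UMIs in sham. The share of all genes apart in male-type cells of this pair is not given here. In cells without Xist or Y-linked UMIs, 3469 in sham, Mettl3 had 27.8 CPM in WT PNX, against 28.65 CPM in sham. Mettl14 had 29.6 CPM there, against 27.1 CPM. Over all endothelial cells Ythdf3 had a ratio of 1.38 (1.23 to 1.55) and Mettl14 one of 1.28 (1.10 to 1.496). The other 7 members lay between 0.851 for Fto and 1.03 for Mettl3. The median log2 ratio was -0.0024 over the members and 0.04 over all genes. Markers of proliferating cells summed to 1108 CPM in WT PNX endothelium, against 80.4 CPM in sham. Platelet markers summed to 431 CPM, against 37.1 CPM, B cell markers to 180 CPM, against 49.0 CPM, lymphatic markers to 1859 CPM, against 3326 CPM, and aerocyte markers to 2486 CPM, against 3674 CPM. The part of this makeup in the ratios was not tested. Without the proliferating class the log2 ratio of Rbm15 was 0.60, against 0.67 with it.

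The comparison of the library labelled M3cKO PNX with WT PNX asks what follows the knockout under the same operation. Mettl3 was 0.917 times as high (0.752 to 1.11), so a difference was not detectable at this depth. UMIs can come from outside the deleted part of a gene, so this level does not check the deletion or the label. In male-type cells, the only sex type found in both libraries, Mettl3 had 26.0 CPM in the library labelled M3cKO PNX, against 22.8 CPM in WT PNX. The ratio was 1.14 (0.821 to 1.57). Cells without Xist or Y-linked UMIs had 21.2 CPM, against 27.8 CPM in WT PNX. By class the ratio was 0.843 (0.600 to 1.17) in general capillary cells, 0.858 (0.501 to 1.41) in aerocytes, the large capillary cells that face the alveolus, and 0.927 (0.501 to 1.64) in venous cells.

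Ythdf2 was 1.37 times as high in the library labelled M3cKO PNX as in WT PNX (1.21 to 1.56) and Ythdf1 1.36 times (1.25 to 1.49). Ythdf3 was 0.757 times as high (0.659 to 0.866) and Mettl14 0.763 times (0.633 to 0.915). The median log2 ratio was -0.10 over the members and -0.13 over all genes. Scaling by TMM (the trimmed mean of M values, edgeR's library scaling) moved all log2 ratios of this comparison up by 0.13. Relative to it Ythdf2 reached 1.5-fold at a log2 ratio of 0.59, Ythdf1 was at 0.57, and Mettl3, Wtap, Ythdc1, Fto and Alkbh5, all below 0 without it, lay between 0.00 and 0.12. Cell makeup also differed. A cluster led by the stress genes Atf3 and Hspa1a held 537 of the 2491 endothelial cells in the library labelled M3cKO PNX, against 436 of 3887 in WT PNX. T or NK markers summed to 138 CPM, against 48.9 CPM, and epithelial markers to 590 CPM, against 1270 CPM, in the same order. Markers of lymphatic endothelium summed to 3800 CPM, against 1859 CPM, those of proliferating cells to 470 CPM, against 1108 CPM, and those of plasma cells to 734 CPM, against 322 CPM. Their part in these ratios was not tested. The order of the members changed with the cells summed. The share of all genes apart in the smaller sets of cells that follow is not given here. With a mitochondrial maximum of 5% the ratio was 0.565 for Rbm15, 0.625 for Mettl14, 1.55 for Ythdf2 and 1.03 for Ythdf1. In male-type cells that of Mettl14 was 0.605 (0.437 to 0.826). In general capillary cells named at clustering resolution 1, added after seeing the data, the log2 ratio of Mettl14 was -1.20 and that of Ythdf2 -0.034. The cluster so named held 314 cells of the library labelled M3cKO PNX and 192 of WT PNX, against 2153 of sham. Unnamed endothelial clusters at that resolution held 813 cells of the library labelled M3cKO PNX (led by Rsad2) and 1218 of WT PNX (led by Ntrk2).

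In Foxo1cKO PNX over WT PNX, Mettl3 was the member that passed the rule of size, at 0.646 times the WT PNX level (0.540 to 0.771). The other 9 members lay between 0.947 for Ythdf3 and 1.27 for Rbm15, with a median over the 10 members of 0.16 (log2) against -0.01 over all genes. Tox4, which shares the 3′ end of Mettl3, had 88.5 CPM in Foxo1cKO PNX, against 77.6 CPM in WT PNX, a ratio of 1.14 (1.05 to 1.24). Mettl3 was on the lower side in every named class with at least 50 cells in both libraries. Its ratio was 0.666 (0.484 to 0.911) in general capillary cells, 0.451 (0.293 to 0.683) in aerocytes and 0.490 (0.238 to 0.968) in arterial cells. It was 0.725 (0.445 to 1.16) in venous, 0.525 (0.242 to 1.05) in proliferating and 0.552 (0.126 to 1.91) in lymphatic cells, with intervals that include 1. In the unnamed cluster led by Atf3 and Hspa1a it was 0.930 (0.425 to 1.96). In the unnamed cluster led by Fabp4 and Csf2rb2 it was 0.693 (0.185 to 2.59), from 6 UMIs in each library. In the one led by the platelet genes Ppbp and Pf4 it was 1.62 (0.0206 to 127), from 1 UMI in each.

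The ratio was also taken by sex transcripts, which split cells of the same libraries. Female-type cells had 13.0 CPM in Foxo1cKO PNX, against 24.6 CPM in WT PNX, a ratio of 0.530 (0.363 to 0.766). Of all genes, 4.81% were at least 1.5-fold lower in female-type cells. Male-type cells had 23.4 CPM in Foxo1cKO PNX, against 22.8 CPM in WT PNX, a ratio of 1.03 (0.727 to 1.44). Cells with neither kind of transcript had 15.3 CPM in Foxo1cKO PNX, against 27.8 CPM in WT PNX. In sham, with Xist at 0 CPM, male-type cells had 15.55 CPM and cells with neither transcript 28.65 CPM. In the library labelled M3cKO PNX they had 25.97 and 21.17 CPM. Mettl3 thus differed with the capture of a Y-linked transcript in sham, and the part of this capture in the ratios was not tested. Within Foxo1cKO PNX the female-type over male-type ratio of Mettl3 was 0.558 (0.372 to 0.832), and within WT PNX it was 1.08 (0.794 to 1.47). Foxo1 was also lower in female-type than in male-type cells of Foxo1cKO PNX, but unlike Mettl3 it was below WT PNX in both. It had 37.0 CPM in female-type and 127 CPM in male-type cells of Foxo1cKO PNX, and 218 CPM in female-type and 212 CPM in male-type cells of WT PNX. How many animals each kind of cell came from is not given, so an animal, its sex and its residual Foxo1 cannot be told apart. The difference between the female-type and male-type ratios was not tested. With a mitochondrial maximum of 5%, Mettl3 over all endothelial cells was 0.845 times the WT PNX level (0.534 to 1.33) and did not reach 1.5-fold. In general capillary cells named at clustering resolution 1, added after seeing the data, other members passed. The log2 ratio was 0.89 for Alkbh5 and -0.76 for Mettl14 there, and that of Mettl3, -0.32, did not pass. The cluster so named held 257 cells of Foxo1cKO PNX and 192 of WT PNX. An unnamed endothelial cluster led by Ntrk2 held 1214 and 1218 cells of these libraries. The share of all genes apart in the cells at most 5% mitochondrial and in those named at resolution 1 is not given here.

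**Figure D2:**
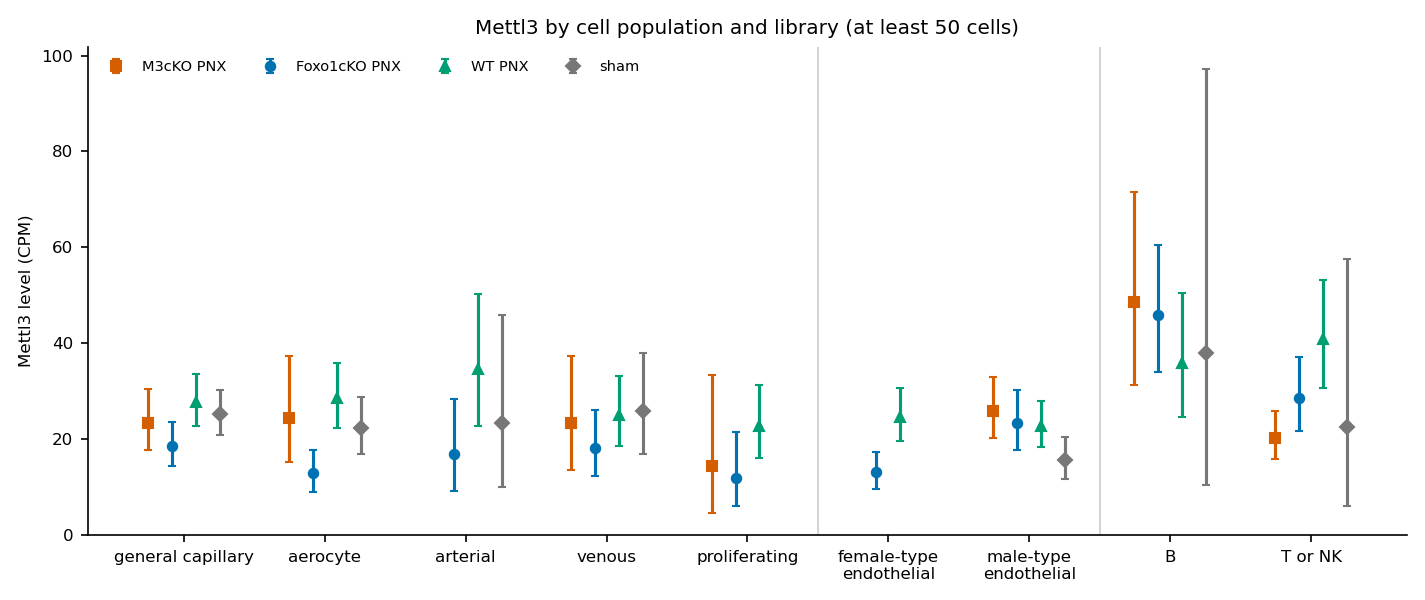
Mettl3 level (CPM, vertical axis from 0) in named populations with at least 50 cells, by library. Lymphatic cells are not shown. Points are CPM of summed UMIs and bars exact Poisson 95% intervals, with endothelial classes left of the first line, sex types between the lines and blood cells at the right. Foxo1cKO PNX lay below WT PNX in each endothelial class, in female-type cells (13.0 against 24.6 CPM) and in T or NK cells (28.6 against 40.8 CPM). It did not in male-type cells (23.4 against 22.8 CPM) or B cells (45.8 against 35.9 CPM).

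The same members were then compared between cell classes within each library, which gives 4 libraries as replicates (3 for proliferating cells, of which sham had 19). The test was edgeR's quasi-likelihood test with the library as a block and Benjamini-Hochberg adjustment over all genes tested, and fold changes are on edgeR's TMM scale. The replicates are libraries of different genotype and operation, so the p-values measure the spread between these libraries. Over 8 populations the level ranges of neighbours in a member's order overlapped in all but 3 of 70 pairs. The 3 gaps lay between proliferating (43.0 to 58.3 CPM) and general capillary cells (27.6 to 36.8 CPM) for Mettl14, between lymphatic (66.9 to 97.0 CPM) and proliferating cells (43.0 to 66.4 CPM) for Alkbh5, and between T or NK cells (214 to 272 CPM) and lymphatic cells (80.3 to 129 CPM) for Ythdc1.

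In proliferating endothelium, 2 of the 10 members rose and 2 fell against general capillary cells. Of all genes tested, 34.4% passed in either direction, so the members' share was near the background. Rbm15 had 37.2, 57.7 and 36.1 CPM in proliferating cells of the library labelled M3cKO PNX, Foxo1cKO PNX and WT PNX, against 22.2, 30.5 and 24.4 CPM in their general capillary cells. The groups did not overlap, and Rbm15 rose by 0.74 on the log2 scale (adjusted p = 0.00359 by edgeR, within-library log2 ratio of CPM 0.74 ± 0.18, SD, n = 3). Mettl14 had 43.0, 51.2 and 58.3 CPM in proliferating cells, against 27.6, 36.8 and 34.8 CPM in general capillary cells of the same libraries. It rose by 0.63 (edgeR adjusted p = 0.00503, higher in 3 of 3 libraries).

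The eraser Alkbh5 had 43.0, 66.4 and 66.1 CPM in proliferating cells of the library labelled M3cKO PNX, Foxo1cKO PNX and WT PNX, against 101.6, 135.7 and 104 CPM in general capillary cells. It was lower in each library and fell by 0.88 (edgeR adjusted p = 8.8e-05, within-library log2 ratio -0.97 ± 0.30, SD, n = 3). Ythdf3 fell by 0.44 (edgeR adjusted p = 0.0332, lower in 3 of 3 libraries). The other 6 members did not pass, with log2 fold changes of -0.44 for Mettl3 to 0.33 for Ythdf2. With DESeq2 the call of Alkbh5 alone was kept. Mettl14 did not pass without WT PNX (edgeR adjusted p = 0.147), Rbm15 did not pass without Foxo1cKO PNX (0.0975), and Ythdf3 did not pass without any 1 of the 3 libraries (0.0862 to 0.168). Over 10 alternative runs the call of Ythdf3 was lost in 8, that of Mettl14 in 4 and that of Rbm15 in 3. With cells of at most 5% mitochondrial UMIs no member passed, and Alkbh5 had a log2 fold change of -1.19 there (edgeR adjusted p = 0.0853).

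In aerocytes, 3 members rose and 2 fell against general capillary cells, where 40.3% of all genes passed. Ythdc1 had 62.8, 80.7, 71.8 and 56.5 CPM in aerocytes of the library labelled M3cKO PNX, Foxo1cKO PNX, WT PNX and sham, against 97.9, 110.1, 114.7 and 104 CPM in general capillary cells. The groups did not overlap, and Ythdc1 fell by 0.57 (edgeR adjusted p = 0.000257, within-library log2 ratio of CPM -0.66 ± 0.18, SD, n = 4). Ythdf1 had 171, 136, 116 and 115 CPM in aerocytes, against 126, 109.6, 97.0 and 99.3 CPM in general capillary cells in the same order. It was higher in 4 of 4 libraries and rose by 0.39 (edgeR adjusted p = 0.00114). Alkbh5 rose by 0.36 (edgeR adjusted p = 0.00406), with 138, 145, 141 and 136 CPM in aerocytes, against 101.6, 135.7, 104 and 122 CPM in general capillary cells. Fto rose by 0.25 (edgeR adjusted p = 0.0221) and Ythdf2 fell by 0.30 (edgeR adjusted p = 0.0234), each in 4 of 4 libraries. The call of Fto was lost in 9 of 11 alternative runs and that of Ythdf2 in 7 of 11. Both were lost with DESeq2, without the library block and without any 1 of sham, WT PNX or Foxo1cKO PNX (edgeR adjusted p = 0.0505 to 0.0994). The call of Ythdf1 was lost without the block (adjusted p = 0.147) and that of Alkbh5 with a mitochondrial maximum of 5% (adjusted p = 0.112). Ythdc1 passed in every alternative run.

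In venous endothelium 2 members fell and none rose against general capillary cells, where 31.3% of all genes passed. Mettl14 had 20.5, 22.4, 22.6 and 8.96 CPM in venous cells of the library labelled M3cKO PNX, Foxo1cKO PNX, WT PNX and sham, against 27.6, 36.8, 34.8 and 32.5 CPM in general capillary cells. It fell by 0.72 (edgeR adjusted p = 0.0108), with the lowest venous value in sham, from 9 UMIs. Ythdc1 fell by 0.39 (edgeR adjusted p = 0.0107, lower in 4 of 4 libraries), a call lost without WT PNX (adjusted p = 0.101) or without Foxo1cKO PNX (adjusted p = 0.0926). Neither passed without the library block. Over 11 alternative runs the venous call of Ythdc1 was lost in 6 and that of Mettl14 in 2. In arterial cells 0 of the 10 members passed with edgeR, 0 had an unadjusted p under 0.05 and 0 passed with DESeq2, where 22.6% of all genes passed.

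**Figure D3:**
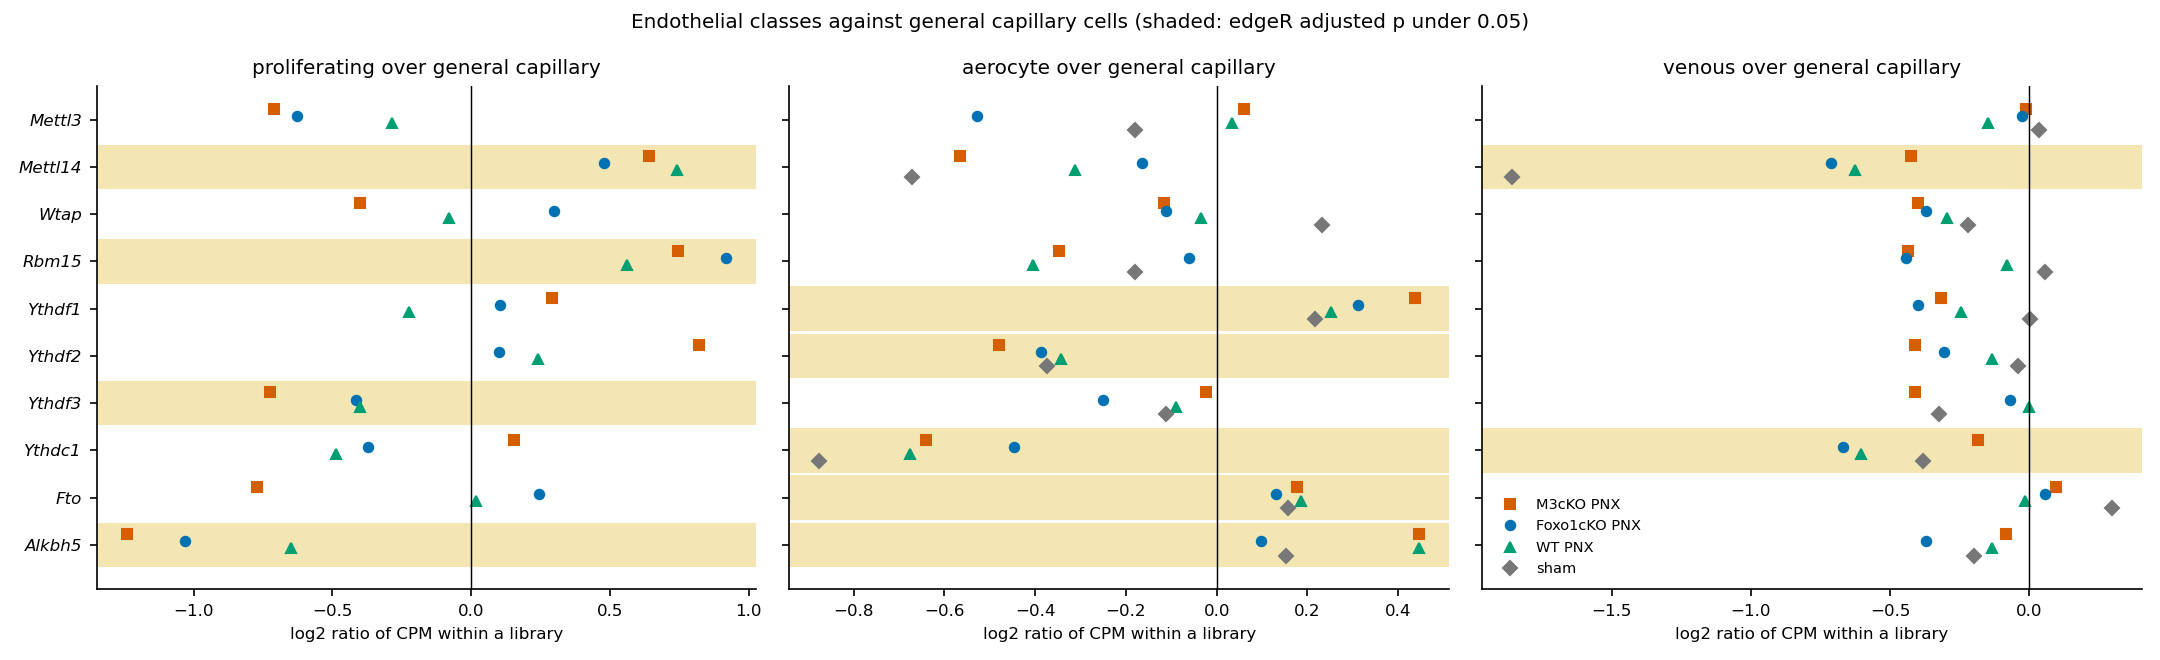
Within-library log2 ratio of CPM (horizontal axis) of each member in proliferating cells, aerocytes and venous cells over general capillary cells, each point 1 library. Shaded rows had an edgeR adjusted p under 0.05. All points of Alkbh5 in proliferating cells and of Ythdc1 in aerocytes lay left of 0.

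B cells and T or NK cells were left in the libraries after bead depletion and give a comparison outside the endothelium. They were cells of clusters named from lymphocyte markers with at most 1 UMI of the 6 endothelial genes. General capillary markers summed to 38.8 to 247 CPM in the B cells and 52.6 to 265 CPM in the T or NK cells. In endothelium they summed to 7567 to 8085 CPM. Endothelial RNA was thus low in both kinds of lymphocyte, which the limit on endothelial UMIs itself favours. Of all genes, 62.0% passed for B cells and 60.5% for T or NK cells. Of the members, 3 rose and 2 fell in B cells, and 2 rose and 1 fell in T or NK cells.

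Ythdc1 stood out in level. It had 256, 246, 262 and 304 CPM in B cells of the library labelled M3cKO PNX, Foxo1cKO PNX, WT PNX and sham, against 94.9, 95.9, 95.9 and 94.0 CPM in endothelial cells. It rose by 1.39 on the log2 scale in B cells (edgeR adjusted p = 1.15e-06, within-library log2 ratio 1.48 ± 0.15, SD, n = 4). T or NK cells had 272, 220, 241 and 214 CPM in the same order, and Ythdc1 rose by 1.44 in them (edgeR adjusted p = 3.65e-05). The levels of both kinds of lymphocyte lay above every endothelial value. Both calls held in every alternative run.

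Ythdf3 had 103, 98.0, 98.9 and 66.4 CPM in B cells, against 44.98, 56.3, 59.5 and 43.2 CPM in endothelial cells of the same libraries, and rose by 0.82 (edgeR adjusted p = 0.000386). In T or NK cells it rose by 0.52 (edgeR adjusted p = 0.0162, higher in 4 of 4 libraries), a call lost without Foxo1cKO PNX (adjusted p = 0.128) and with a mitochondrial maximum of 5% (adjusted p = 0.865). Fto went the other way, with 44.6, 39.4, 55.4 and 28.5 CPM in B cells, against 71.9, 85.1, 78.4 and 92.2 CPM in endothelial cells. It fell by 0.87 in B cells (edgeR adjusted p = 0.00112) and by 0.65 in T or NK cells (edgeR adjusted p = 0.00718). The groups did not overlap for Fto in either comparison, though its sham B value rests on 3 UMIs in 65 cells (5.87 to 83.2 CPM). With a mitochondrial maximum of 5% the call of Fto in T or NK cells was lost (adjusted p = 0.235).

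Mettl3 had 48.5, 45.8, 35.9 and 37.9 CPM in B cells of the library labelled M3cKO PNX, Foxo1cKO PNX, WT PNX and sham, against 23.1, 16.3, 25.2 and 24.4 CPM in endothelial cells. It was higher in 4 of 4 libraries and rose by 0.95 (edgeR adjusted p = 0.00214), a call lost without Foxo1cKO PNX (log2 fold change 0.65, adjusted p = 0.0773). The sham B value of Mettl3 rests on 4 UMIs in 65 cells (10.3 to 97.2 CPM). Ythdf1 fell by 0.43 in B cells at the edge of the threshold (edgeR adjusted p = 0.049995, lower in 3 of 4 libraries). In T or NK cells the Mettl3 level was split by library, with 20.3 CPM in the library labelled M3cKO PNX, 28.6 CPM in Foxo1cKO PNX, 40.8 CPM in WT PNX and 22.5 CPM in sham. The ratio of the library labelled M3cKO PNX to WT PNX was 0.499 (0.344 to 0.726). The share of all genes apart between these libraries in T or NK cells is not given here. Without the library labelled M3cKO PNX, Mettl3 passed the test in T or NK cells at a log2 fold change of 0.74 (adjusted p = 0.00626). The T or NK cells differed in makeup. Of those counted here, 969 in the library labelled M3cKO PNX, against 129 in WT PNX, were in a cluster led by Ccl5 and Icos, and 305, against 474, in one led by Lef1 and Dapl1. The part of this makeup in the ratio was not tested.

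**Figure D4:**
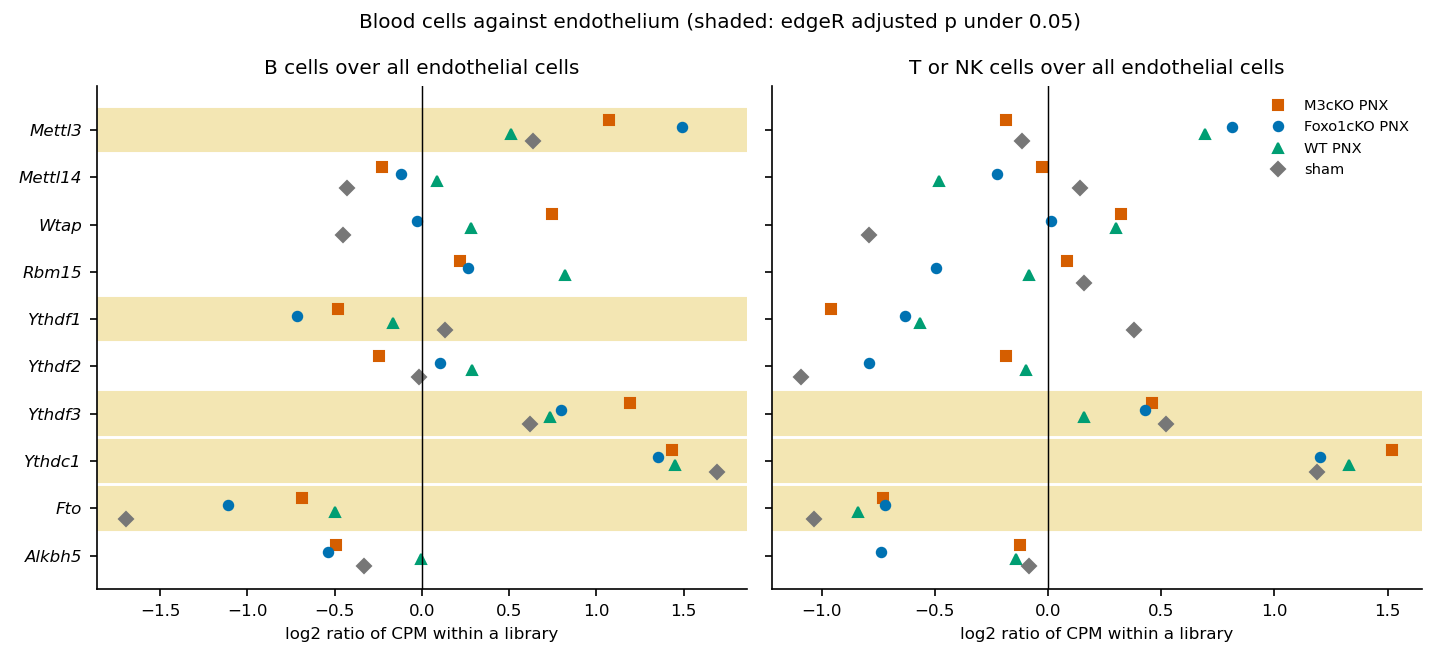
Within-library log2 ratio of CPM (horizontal axis) of each member in B cells (left) and lymphocytes of T or NK type (right) over all endothelial cells, each point 1 library. Shaded rows had an edgeR adjusted p under 0.05. Ythdc1 lay right of 1 in all 4 libraries in both comparisons, and Fto lay left of 0.

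Across 21 units of library and endothelial class with at least 50 cells, the 45 pairs of members had Pearson r from -0.56 (Ythdf2 with Ythdf3) to 0.55 (Mettl14 with Ythdf2), and 21 of them were above 0. Units share libraries and depth, so these values are a description. Among 3740 genes with a mean of at least 50 CPM, those most like Mettl3 were Xbp1 (r = 0.62), Ist1 (0.60), Scgb1a1 (0.60), Rnf125 (0.58) and Copb1 (0.58). The closest gene was Suz12 for Mettl14 (0.87), Rbx1 for Wtap (0.74), Gemin7 for Rbm15 (0.86), Wasf2 for Ythdf1 (0.82), Sf1 for Ythdf2 (0.81), Mtmr6 for Ythdf3 (0.83), Elk4 for Ythdc1 (0.82), March2 for Fto (0.79) and Cmtm6 for Alkbh5 (0.90).

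A list of 30 further m6A genes was read beside the members. It held other subunits of the writer complex, other RNA methyltransferases, further readers, enzymes of methyl donor supply and the CCR4-NOT deadenylase. At 10 CPM or more, 25, 25 and 24 of them were measured in the 3 library comparisons. In WT PNX over sham 2 were at least 1.5-fold higher and 0 lower, where 18.3% of all genes measured were apart (11.3% higher, 6.98% lower). The reader Hnrnpa2b1 had 605 CPM in WT PNX, against 367 CPM in sham (ratio 1.65, 1.59 to 1.71), and Fmr1, a translational repressor, 45.8 CPM, against 29.8 CPM (ratio 1.54, 1.34 to 1.76). In the library labelled M3cKO PNX over WT PNX, 1 was higher and 2 lower, where 20.7% of all genes were apart (6.37% higher, 14.4% lower). Mat2a, which makes the methyl donor S-adenosylmethionine and whose own transcript is an m6A target of Mettl16, had 305 CPM, against 195 CPM in WT PNX (ratio 1.57, 1.48 to 1.66). The difference was not particular to endothelium. Mat2a had 322 CPM in T or NK cells of that library, against 185 CPM in WT PNX, and 316 CPM in B cells, against 247 CPM. Fmr1 had 29.6 CPM, against 45.8 CPM in WT PNX (ratio 0.646, 0.547 to 0.760), and the ribosomal RNA methyltransferase Mettl5 9.70 CPM, against 15.3 CPM in WT PNX (ratio 0.636, 0.472 to 0.846). In Foxo1cKO PNX over WT PNX 0 of 24 were apart, where 2.49% of all genes were.

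Between classes, 7 of 27 further genes rose and 1 fell in proliferating over general capillary cells, where 34.4% of all genes passed. Ahcy, which clears S-adenosylhomocysteine, rose by 1.27 and Rbmx by 1.05, and Mat2b fell by 0.99 (edgeR adjusted p = 0.0198, 1.06e-05 and 0.000343). In aerocytes 0 rose and 6 fell, where 40.3% of all genes passed. Zc3h13, a subunit of the writer complex, fell by 0.52, Hnrnpa2b1 by 0.41 and Cnot3 by 0.39 (edgeR adjusted p = 0.000996, 0.000424 and 0.0114). In venous cells 2 rose and 2 fell, where 31.3% of all genes passed, with Mat2a up by 0.51, Trmt112 up by 0.31 and Cnot8 down, a log2 fold change of -0.33 (edgeR adjusted p = 0.00204, 0.0398 and 0.0411). In arterial cells, where 22.6% of all genes passed, 0 of 26 rose and 2 fell, Mettl16 by 0.87 and Cnot6l by 0.52 (edgeR adjusted p = 0.011 and 0.00702). In B cells, where 62.0% of all genes passed, 10 of 27 rose and 2 fell, led by Ahcy at 1.90, Cnot6l at 1.13 and Ythdc2, a helicase reader, at 1.05 (edgeR adjusted p = 0.000273, 1.55e-05 and 0.0194). In T or NK cells, where 60.5% of all genes passed, 10 of 27 rose and 2 fell, led by Ahcy at 2.21, Cnot6l at 1.29 and Cnot1 at 0.98 (edgeR adjusted p = 0.00123, 0.000122 and 0.00118). Ahcy and Ythdc2 were low, at 2.86 to 5.99 CPM and 4.00 to 7.30 CPM in endothelial cells, under the 10 CPM asked of the library comparisons. Ahcy had 0 CPM in sham B cells. Ahcy and Rbmx have retrocopies in the mouse genome, and how reads shared with them were counted is not given in the sources used here.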

How the data were processed

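Lung cells of 4 mouse libraries, 1 per group, were profiled by droplet sequencing. Per the labels, beads against CD45 and then CD31 gave the cell suspension after collagenase digestion, and Cell Ranger 2.1.1 placed the reads on mm10. Per the file headers the software version was 3.0.0, and the submitters' processing notes also name R 3.4.4. The authors deposited raw UMI counts per gene and barcode, without normalization, and these were used as deposited. Of 32285 gene IDs, 32235 were in GENCODE M21.

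From the counts, cells with at least 500 genes and at most 10% mitochondrial UMIs were kept. They were scaled to 10000 counts, reduced to 2000 variable genes, 40 components and 20 neighbours, and clustered with Leiden in scanpy 1.11.5 without the members, the other m6A genes, sex transcripts and mitochondrial genes. Resolution 0.5 was used in place of the planned 1, where general capillary cells split by library. That change was made on the composition of the clusters. Clusters were named when at least 3 markers of 1 list were among the 50 leading genes. Doublets were handled by the marker rule, with the highest Scrublet scores left out as an alternative.

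Levels rest on 6492399 to 13691550 endothelial UMIs per library and have exact Poisson intervals at 95%. Ratios of 2 libraries carry no test. Class sums of at least 20 cells were tested with edgeR 4.0.16 in R 4.3.3 (filterByExpr, TMM, quasi-likelihood, library block, threshold 0.05), and DESeq2 1.42.0 was an alternative. Class sums of the same library come from the same cell suspension, which is why the library is a block. The steps were tested on simulated data. Python 3.11.15, numpy 2.4.6, scipy 1.17.1, pandas 2.3.3, anndata 0.12.19, igraph 0.11.9, scikit-learn 1.9.0 and matplotlib 3.10.9 were used. The members and gene lists were chosen with earlier results of these data known. All members are named, and of the 30 other m6A genes those at least 1.5-fold apart between libraries and the 3 with the largest change past the test between classes. Foxo1 is named as the gene of its label, and Tox4 was added after its overlap with Mettl3 was seen.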

Additional observations from a re-analysis of the deposited data

Results flagged for a closer look

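Mettl3 in Foxo1cKO PNX over WT PNX had opposite signs in populations of the same libraries. Its log2 ratio was -0.63 in all endothelial cells and 0.35 in B cells, and within the endothelium it was -0.92 in female-type and 0.038 in male-type cells. T or NK cells were on the lower side, with 28.6 CPM in Foxo1cKO PNX, against 40.8 CPM in WT PNX. The B and male-type intervals both include a ratio of 1. Wtap in WT PNX over sham had a log2 ratio of -0.034 in endothelial cells and 1.06 in T or NK cells, where sham held 8 Wtap UMIs over 83 cells. With 1 library per group, none of these differences was tested, and each was seen in 1 pair of libraries.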

How the results depend on the processing

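Counts of members at least 1.5-fold apart (1 for WT PNX over sham, 0 for M3cKO PNX over WT PNX, 1 for Foxo1cKO PNX over WT PNX) depended on the setting. In the same order they were 0, 0 and 0 with 5 CPM added to both levels, 2, 3 and 0 with a mitochondrial maximum of 5%, and 3, 1 and 2 in general capillary cells named at resolution 1, an alternative added after seeing the data. TMM scaling gave 1 for M3cKO PNX over WT PNX. The share of all genes apart is not given here for these settings, nor for male-type cells alone, so these counts have no background beside them. Male-type cells alone gave 1 and 0 for the 2 knockout comparisons, and Mettl3 in Foxo1cKO PNX over WT PNX turned to a log2 ratio of 0.038 there and was -0.92 in female-type cells, also added after seeing the data. Counts of members past the test (4 in proliferating cells, 5 in aerocytes, 2 in venous cells over general capillary cells) were 1, 3 and 1 with DESeq2, 0, 3 and 0 with a mitochondrial maximum of 5%, and 2, 3 and 1 at resolution 1. With all classes in 1 fit the aerocyte count was 3. Without the replicate block that pairs classes of a library, the aerocyte count was 2 and the venous count 0. Leaving out 1 library at a time gave 2 to 4 members in proliferating cells (2 without WT PNX or Foxo1cKO PNX), 3 to 5 in aerocytes (3 without sham, WT PNX or Foxo1cKO PNX), 1 to 2 in venous cells (1 without WT PNX or Foxo1cKO PNX), 0 in arterial cells, 3 to 5 in B cells (5 with all libraries, 3 without Foxo1cKO PNX) and 2 to 5 in T or NK cells (3 with all libraries, 5 without sham). Of 969 values of single members under an alternative, 50 lost a call and 9 gained one. The sign differed in 80 of the 969, and in 5 of these the log2 value was at least 0.2 from 0 with the main settings. The 5% maximum, the single-sex settings and the general capillary naming at resolution 1 leave fewer cells. The cause of these changes was not tested. Arterial and B cells had too few cells for a fit at 5%. Relative to their level, low members such as Mettl3 and Rbm15, at 15.2 to 30.5 CPM, have wider intervals than high ones such as Alkbh5.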
